A study of Mus musculus with 12 samples.

Results

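The S100 proteins are small calcium-binding proteins, and 10 members of the family were read across 4 fractions of monocyte-macrophage lineage cells (Mo-Macs) from inflamed mouse skin. The members were chosen by gene symbol, which picked 10 of the 37775 rows of the count table. They were *S100a8* and *S100a9* (calprotectin), *S100a4*, *S100a6*, *S100a10* and *S100a11* (broadly expressed in leukocytes), *S100a3*, *S100a14* and *S100a16* (epidermal) and *S100a1* (striated muscle). The first 6 are called the myeloid members below, and *S100a1* belongs to neither class. The classes follow known main expression and do not say which cells the counts came from. All 10 passed the filter on low counts and were among the 22118 genes tested. However, *S100a3* passed through early CMDMs, where 3 of 3 libraries exceeded the limit of 0.633 CPM. In late CMDMs 1 of 3 libraries did, and 0 did in the other fractions. CPM are counts scaled to library size by TMM, except for this limit, which uses the library total alone.

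RNA-seq was performed on Mo-Macs sorted from the ear skin of WT BALB/c mice with IgE-mediated chronic allergic inflammation (IgE-CAI), a skin allergy model. Every mouse had received 300 μg of TNP-specific IgE intravenously and 10 μg of TNP-OVA in the ear, and cells were taken on day 5 after challenge. CD45+ CD11b+ SiglecF- Ly6G- cells were sorted into Ly6Chi PD-L2lo classical monocytes, Ly6Chi PD-L2hi early classical monocyte-derived macrophages (early CMDMs), Ly6Clo PD-L2hi late CMDMs and Ly6Clo PD-L2lo resident-like macrophages, with 3 libraries each. The mice were young adult males, per the study's methods. Whether the libraries of a fraction came from separate mice is not given in the sources used here, so that p-values measure only the spread between these samples, which may be technical.

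Calprotectin, the heterodimer of S100A8 and S100A9, is stored in neutrophils and monocytes, is induced in the epidermis during inflammation, and acts outside the cell through TLR4 and RAGE. S100A4, S100A6, S100A10 and S100A11 work mainly inside the cell, where they bind myosin, annexins and other partners. S100A3 is known from the hair cuticle, S100A14 and S100A16 from epithelia, and S100A1 from heart and skeletal muscle, where it regulates calcium handling.

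Library totals ran from 12537178 to 19844113 counts, and 3 counts, taken as the detection limit, corresponded to 0.162 to 0.239 CPM. Early CMDM libraries stood apart in keratinocyte RNA. They did not in fibroblast genes, as given below. In dendritic and Langerhans cell genes they lay above classical monocytes and late CMDMs and below resident-like macrophages, without overlap. The summed CPM of 6 keratinocyte genes (*Krt5*, *Krt14*, *Krt1*, *Krt10*, *Krt15*, *Dsp*) lay between 17096 and 27284 in early CMDMs, 1871 and 4050 in classical monocytes, 3106 and 3647 in late CMDMs and 2298 and 2615 in the resident-like libraries, and 0 of the 6 were at 0 in any fraction. In the same libraries the summed CPM of 8 monocyte and macrophage genes was lowest in early CMDMs, from 2353 to 3358, against 5698 to 10059 in the other libraries. Scaling each library by 10 leukocyte genes instead of all genes moved the median gene, by 1.71 on the log2 scale in early CMDMs against classical monocytes, -0.86 in late against early CMDMs and -0.63 in resident-like macrophages against late CMDMs. The shift was 0.21 in resident-like macrophages and 0.83 in late CMDMs against classical monocytes, and -1.49 in resident-like macrophages against early CMDMs. A value that already has the direction of this shift is moved further that way, so that keeping its direction under this scaling adds no support. In bulk samples fewer cells of a type and less RNA per cell cannot be told apart.

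All 10 members lie on chromosome 3 of GRCm38 as multi-exon protein-coding genes. *S100a1*, *S100a14*, *S100a16*, *S100a3*, *S100a4*, *S100a6*, *S100a8* and *S100a9* span 184.7 kb from 90511034 to 90695721, and *S100a11* and *S100a10* span 44.2 kb from 93520488 to 93564643, 2.82 Mb away. *S100a8* and *S100a9* are 22.6 kb apart, and *S100a14* and *S100a16* 8.4 kb apart. Each S100 protein carries a canonical EF-hand, a calcium-binding loop of 12 residues, unless the loop has diverged. A search of the coding sequences for the canonical loop found it in 7 of 10 members and did not match in *S100a3*, *S100a10* and *S100a14*. The loops are shown because they are the calcium-binding core that these 7 members have in common. They are given as coding sequence of GRCm38, 5′ to 3′, with the first codon, for aspartate, and the last codon, for glutamate, in capitals.
S100a8: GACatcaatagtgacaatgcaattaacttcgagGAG
S100a9: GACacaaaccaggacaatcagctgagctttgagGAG
S100a4: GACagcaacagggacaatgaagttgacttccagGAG
S100a6: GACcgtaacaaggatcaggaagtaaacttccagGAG
S100a11: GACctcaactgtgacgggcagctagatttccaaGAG
S100a16: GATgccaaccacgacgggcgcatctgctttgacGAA
S100a1: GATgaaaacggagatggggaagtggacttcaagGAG
Of 36 bases, the loops of *S100a8* and *S100a4* shared 29, those of *S100a8* and *S100a9* shared 23, and the epidermal *S100a16* shared 16 with *S100a4*. Pairs of myeloid members shared 20 to 29 bases. *S100a16* shared 16 to 19 with *S100a4*, *S100a6*, *S100a8* and *S100a11*, and 22 with *S100a9*. Likeness within the epidermal class could not be read, since *S100a16* was its only member with a matched loop.

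The promoters of the calprotectin genes are shown because the genes differed in their change between fractions, as described below. They come from RefSeq on GRCm38.p6, which held a promoter for 8 of the 10 members, and run from 250 bases before the annotated start to 50 bases after it. Capitals mark matches, on either strand, to the TATA box (TATAAA, in 13.6% of 32851 promoters), the PU.1 core (GAGGAA, 28.3%), AP-1 (TGANTCA, 7.81%) and C/EBP (TTGCNNAA, 10.8%).
S100a8, chr3:90668821-90669120, plus strand: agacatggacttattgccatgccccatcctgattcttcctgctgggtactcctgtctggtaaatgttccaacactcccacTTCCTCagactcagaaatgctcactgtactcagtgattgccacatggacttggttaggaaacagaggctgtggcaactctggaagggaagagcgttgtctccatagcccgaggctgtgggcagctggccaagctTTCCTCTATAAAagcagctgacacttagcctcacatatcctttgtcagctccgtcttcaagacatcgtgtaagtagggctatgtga
S100a9, chr3:90695672-90695971, minus strand: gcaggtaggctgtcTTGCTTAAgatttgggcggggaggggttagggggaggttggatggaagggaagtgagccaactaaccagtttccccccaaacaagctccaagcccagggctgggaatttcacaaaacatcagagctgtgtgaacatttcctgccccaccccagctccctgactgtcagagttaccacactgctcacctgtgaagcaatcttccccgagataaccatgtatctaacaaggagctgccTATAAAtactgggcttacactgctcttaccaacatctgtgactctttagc
The *S100a8* window held 2 PU.1 matches, of which the second abuts the TATA box without overlapping it, and the *S100a9* window held 1 C/EBP match and a TATA box whose first base is the annotated start. A match is a description of these letters and not a binding site.

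**Figure D1:**
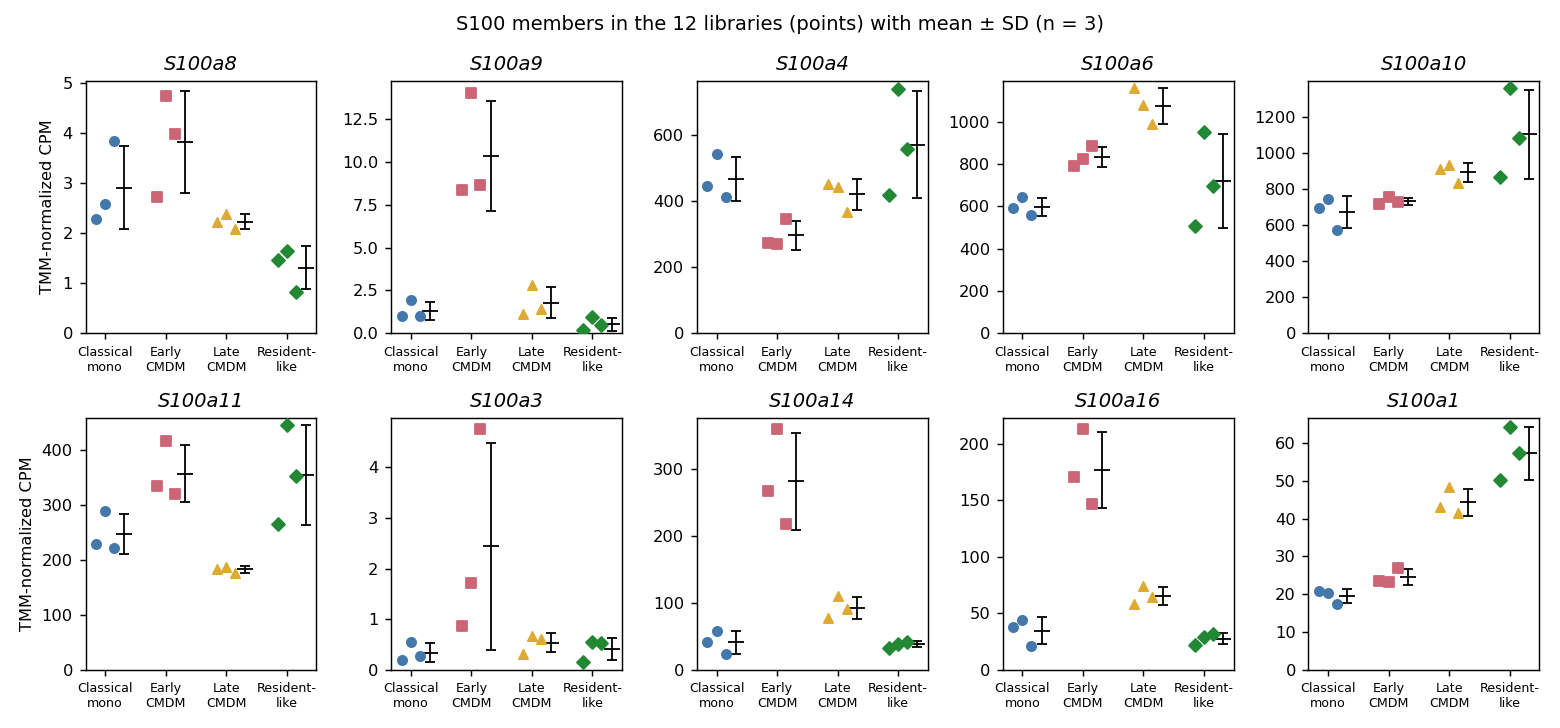
TMM-normalized CPM of the 10 S100 members on linear axes from 0, each point 1 library (12 in all, replicates 1 to 3 from left to right) and each bar the mean ± SD of the 3 libraries of a fraction. *S100a9*, *S100a3*, *S100a14* and *S100a16* are highest in all 3 early CMDM libraries, whereas *S100a1* climbs from classical monocytes (17.3 to 20.7 CPM) to resident-like macrophages (50.2 to 64.4 CPM).

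Per kilobase of transcript, the broadly expressed leukocyte members were the most abundant in every fraction. On the scale of mean CPM per kb, *S100a10* ranged from 979 to 1611 over the 4 fractions, *S100a6* from 819 to 1469.6, *S100a4* from 595 to 1149.6 and *S100a11* from 357 to 698. The epidermal members *S100a14* and *S100a16* had 35.9 to 266 and 24.4 to 157 CPM per kb, and *S100a1* had 28.8 to 84.7. Calprotectin was scarce throughout, with 2.69 to 7.86 CPM per kb for *S100a8* and 0.991 to 19.9 for *S100a9*, and *S100a3* was the rarest, with 0.474 to 3.43. The 10 members took 0.187% to 0.331% of the counts of a library. *S100a4*, *S100a6*, *S100a10* and *S100a11* made up 91.7% to 96.3% of these member counts outside early CMDMs but 78.6% to 84.8% in early CMDMs, where the epidermal members took a greater part.

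The members were counted first between successive fractions. In early CMDMs against classical monocytes, 7 of 10 members were higher and 1 was lower at an adjusted p under 0.05, where 24.2% of all tested genes were higher and 20.6% lower (44.9% in either direction). In late against early CMDMs, 2 members were higher and 6 lower, against 14.4% and 17.5% of all genes (31.9% in either direction). In resident-like macrophages against late CMDMs, 2 were higher and 4 lower, against 12.7% and 15.4% (28.1%). Without *S100a3*, which had to differ in early CMDMs, 6 of 9 members were higher in the first of these comparisons and 5 of 9 lower in the second. The median log2 fold change over the members was 0.51, -0.87 and -0.50 in these comparisons, beside -0.01, 0.02 and 0.00275 over all tested genes. With scaling by leukocyte genes the members divided into 10 higher and 0 lower, 0 higher and 8 lower, and 0 higher and 5 lower. Of all 22118 tested genes, 20073 were then higher and 472 lower, 196 higher and 15153 lower, and 622 higher and 11789 lower. Most tested genes thus had the direction of the members under that scaling. Without classical monocyte replicate 3 the 7 higher members became 4. The 2 higher members of late against early CMDMs became 1 without classical monocyte replicate 1, early CMDM replicate 1 or 2, late CMDM replicate 1 or 2 or resident-like replicate 3. In resident-like macrophages against late CMDMs, 1 member was higher without late CMDM replicate 1 or 3 or resident-like replicate 2 or 3, and 4 were higher and 2 lower without resident-like replicate 1. With log2 total counts as a covariate, 1 was higher and 0 lower there.

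The remaining comparisons share libraries with those above. In resident-like macrophages against classical monocytes, 3 members were higher and 1 lower, beside 10.8% and 12.9% of all genes (23.7%). In late CMDMs against classical monocytes, 5 were higher and 1 lower, beside 18.1% and 17.5% (35.6%). In resident-like macrophages against early CMDMs, 3 were higher and 5 lower, beside 21.4% and 25.1% (46.6%). Among the 5 was *S100a3*, which had to differ in early CMDMs. With scaling by leukocyte genes these became 4 higher and 1 lower, 8 higher and 0 lower, and 0 higher and 9 lower. Of all 22118 tested genes, 2932 were then higher and 1574 lower, 14817 higher and 1080 lower, and 357 higher and 19498 lower. Against classical monocytes, resident-like macrophages had 5 members higher without resident-like replicate 1, and 2 lower without classical monocyte replicate 3 or resident-like replicate 2. The 1 lower member of late CMDMs against classical monocytes, *S100a11*, is taken up with that gene.

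**Figure D2:**
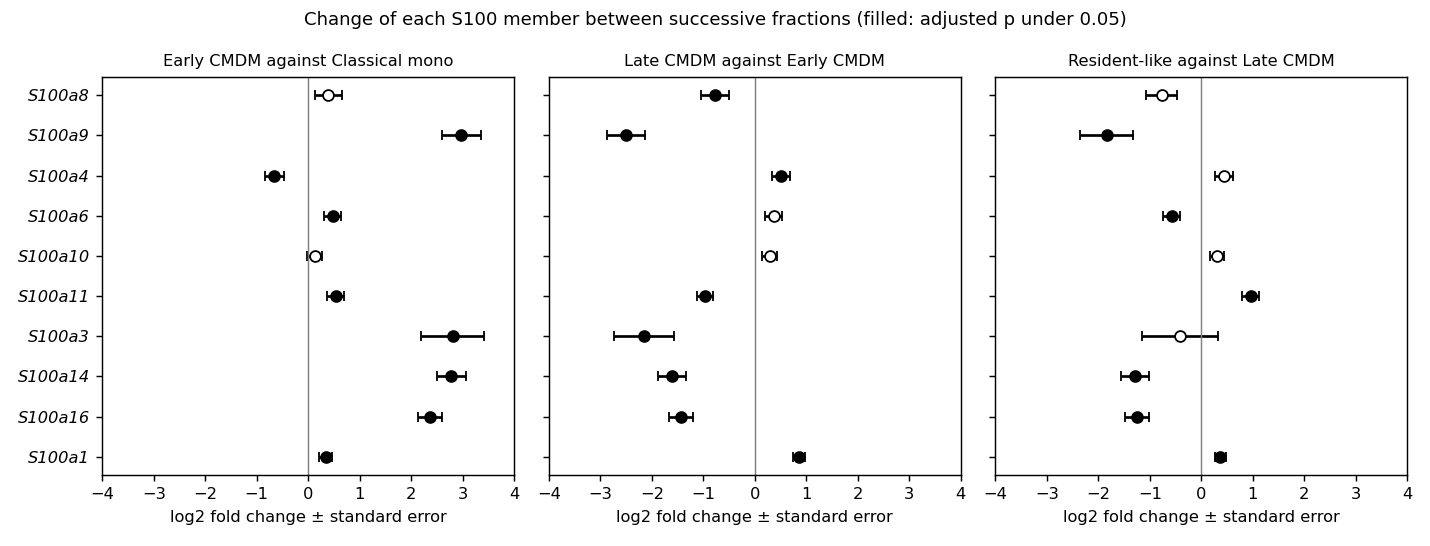
Log2 fold change (horizontal axis) of each S100 member in 3 comparisons of successive fractions, with the standard error as bars and filled points for an adjusted p under 0.05 in edgeR's quasi-likelihood test over 12 libraries. *S100a9*, *S100a3*, *S100a14* and *S100a16* lie above 2 in early CMDMs against classical monocytes and below -1 in late against early CMDMs, while the broadly expressed members lie between -1 and 1 in all panels.

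The calprotectin genes differed from each other, because *S100a9* rose in early CMDMs and *S100a8* did not pass the test. *S100a9* (chromosome 3, 90692632 to 90695721) had 0.985, 1.92 and 1.00 CPM in the classical monocyte libraries, 8.35, 14.04 and 8.67 CPM in the early CMDM libraries, 1.12, 2.80 and 1.42 CPM in the late CMDM libraries and 0.162, 0.910 and 0.471 CPM in the resident-like libraries. The early CMDM libraries overlapped with no other library, and resident-like replicate 1 held only 3 counts. Replicate 2 was the highest library of each fraction. From classical monocytes to early CMDMs the log2 fold change was 2.97 (standard error 0.38, edgeR adjusted p = 1.16e-05), a 7.85-fold rise. *S100a9* then fell in late CMDMs by 2.50 on the log2 scale (standard error 0.37, edgeR adjusted p = 9.64e-05), and was 20.3-fold lower in resident-like macrophages than in early CMDMs. Late CMDMs and classical monocytes overlapped (log2 fold change 0.47, edgeR adjusted p = 0.448), and this value turned to -0.0356 without late CMDM replicate 2. The fall from late CMDMs to resident-like macrophages, -1.84 on the log2 scale (edgeR adjusted p = 0.0159), was no longer called without late CMDM replicate 2 (-1.33) or resident-like replicate 1 (-1.39), or with log2 total counts as a covariate (-2.70, edgeR adjusted p = 0.0564). Against classical monocytes the resident-like value of -1.37 did not pass (edgeR adjusted p = 0.081) but did without resident-like replicate 2 (-2.05), with library size only as the scaling (-1.54, edgeR adjusted p = 0.0446) and in DESeq2 (-1.38, adjusted p = 0.0218).

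*S100a8* (chromosome 3, 90668978 to 90670035) was read from 14 to 75 counts per library. It had 2.28, 2.58 and 3.85 CPM in the classical monocyte libraries, 2.72, 4.74 and 3.99 CPM in the early CMDM libraries, 2.23, 2.37 and 2.09 CPM in the late CMDM libraries and 1.46, 1.64 and 0.824 CPM in the resident-like libraries. Classical monocytes overlapped with early and with late CMDMs, and the resident-like libraries were the lowest. From classical monocytes to early CMDMs the log2 fold change was 0.39 (standard error 0.26, edgeR adjusted p = 0.24), and it was 2.12 and called with scaling by leukocyte genes. *S100a8* was lower in resident-like macrophages than in classical monocytes by 2.22-fold (log2 fold change -1.15, standard error 0.29, edgeR adjusted p = 0.00797) and than in early CMDMs by 2.91-fold (edgeR adjusted p = 0.000328). Its fall from early to late CMDMs (-0.77, edgeR adjusted p = 0.0408) was no longer called without early CMDM replicate 2 (-0.59) or 3 (-0.74), or without late CMDM replicate 1 (-0.77), 2 (-0.82) or 3 (-0.73), or with the total count covariate (-0.69). Late CMDMs against classical monocytes gave -0.38, which did not pass and turned to 0.46 with scaling by leukocyte genes.

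The ratio of *S100a9* to *S100a8* counts was used only to compare fractions. It was 3.07, 2.96 and 2.17 in the early CMDM libraries, 0.432, 0.745 and 0.261 in classical monocytes, 0.500, 1.18 and 0.677 in late CMDMs and 0.111, 0.556 and 0.571 in the resident-like libraries. The early CMDM libraries did not overlap with the others. This ratio is not changed by the scaling of a library.

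The neutrophil sum was not higher in early CMDMs than in the other fractions. The summed CPM of 12 neutrophil genes was 28.8 to 30.6 in early CMDMs, 28.7 to 49.7 in classical monocytes, 70.6 to 76.4 in late CMDMs and 98.4 to 111.9 in the resident-like libraries, and *Ly6g*, the gene of the gating marker, was at 0 in every fraction but classical monocytes. The list was led by *Mmp9*, which monocytic cells also express, with 44.0 to 50.1 CPM in resident-like macrophages, 8.60 to 10.004 CPM in early CMDMs and 4.49 to 5.69 CPM in classical monocytes. Of the 6 neutrophil genes tested, 2 were higher and 1 lower in early CMDMs than in classical monocytes (24.2% and 20.6% of all tested genes), and their part in the calprotectin values was not tested. The keratinocyte genes did move with *S100a9*. Per 1000 CPM of keratinocyte genes, *S100a9* had 0.458 ± 0.0882 CPM in classical monocytes, 0.457 ± 0.0929 in early CMDMs, 0.527 ± 0.213 in late CMDMs and 0.206 ± 0.139 in the resident-like libraries (SD, n = 3). The first 3 fractions overlapped on this scale, and the part of keratinocyte RNA in the *S100a9* values was not tested.

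The epidermal members *S100a14* and *S100a16* were higher in early CMDMs than in every other fraction, fell in late CMDMs and fell again in resident-like macrophages. *S100a14* (chromosome 3, 90526856 to 90528837) had 41.1, 58.1 and 23.9 CPM in the classical monocyte libraries, 267, 359.9 and 218 CPM in the early CMDM libraries, 77.4, 110.1 and 90.2 CPM in the late CMDM libraries and 33.05, 38.9 and 42.1 CPM in the resident-like libraries. Early CMDMs stood above late CMDMs, and late CMDMs above the other 2 fractions, without overlap, whereas classical monocytes and resident-like macrophages overlapped. From classical monocytes to early CMDMs the log2 fold change was 2.78 (standard error 0.28, edgeR adjusted p = 4.07e-06), a 6.86-fold rise, and late CMDMs were still 2.26-fold higher than classical monocytes (edgeR adjusted p = 0.0045). *S100a14* was 3.04-fold lower in late than in early CMDMs (log2 fold change -1.60, edgeR adjusted p = 0.000546) and 2.44-fold lower in resident-like macrophages than in late CMDMs (-1.28, edgeR adjusted p = 0.0036), the latter not called with the total count covariate (-1.53, edgeR adjusted p = 0.0748). Resident-like macrophages and classical monocytes had a log2 difference of -0.11 (edgeR adjusted p = 0.83), which was 0.229 without classical monocyte replicate 2 and 0.108 with scaling by leukocyte genes.

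*S100a16* (chromosome 3, 90537254 to 90543151) followed the same order. It had 38.3, 43.9 and 21.2 CPM in the classical monocyte libraries, 171, 214 and 147 CPM in the early CMDM libraries, 58.1, 73.9 and 64.5 CPM in the late CMDM libraries and 21.8, 29.1 and 31.7 CPM in the resident-like libraries. Only classical monocytes and resident-like macrophages overlapped. The rise in early CMDMs against classical monocytes was 5.13-fold (log2 fold change 2.36, standard error 0.23, edgeR adjusted p = 2.03e-06), and the later falls were 2.70-fold into late CMDMs (edgeR adjusted p = 0.000268) and 2.38-fold from there to resident-like macrophages (edgeR adjusted p = 0.00121), the last not called with the total count covariate (-1.24, edgeR adjusted p = 0.0901). Late CMDMs were 1.90-fold above classical monocytes (edgeR adjusted p = 0.00608). The value of resident-like macrophages against classical monocytes, -0.33 on the log2 scale, did not pass (edgeR adjusted p = 0.375) but did without classical monocyte replicate 3 (-0.58). *S100a16* counts per 100 *S100a14* counts were 59.3 to 67.1 in early CMDMs, 67.1 to 75.1 in late CMDMs, 66.1 to 75.1 in resident-like macrophages and 75.5 to 93.3 in classical monocytes.

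*S100a3* (chromosome 3, 90560578 to 90602702) was near the detection limit. It had 0.185, 0.550 and 0.279 CPM in the classical monocyte libraries, 0.866, 1.71 and 4.75 CPM in the early CMDM libraries, 0.319, 0.669 and 0.607 CPM in the late CMDM libraries and 0.162, 0.546 and 0.530 CPM in the resident-like libraries, from 3 to 75 counts per library. Early CMDM replicate 3 was the highest. Because *S100a3* entered the test through early CMDMs, it had to differ there, and its log2 fold change of 2.80 against classical monocytes (standard error 0.61, edgeR adjusted p = 0.00154) is given only as a description. Without early CMDM replicate 3 the log2 fold change of late against early CMDMs went from -2.15 to -1.23 and was no longer called. Hair keratin genes, 6 of 7 listed being in the table, were also highest in early CMDM replicate 3, with a summed 2.66 CPM against 0.680 and 0.443 CPM in replicates 1 and 2. Their part in the *S100a3* value was not tested.

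The epidermal members were also set against the keratinocyte genes. Per 1000 CPM of those 6 genes, *S100a14* had 12.8 to 15.1 CPM in classical monocytes, 11.2 to 13.2 in early CMDMs, 14.4 to 17.7 in resident-like macrophages and 24.9 to 30.2 in late CMDMs. *S100a16* had 10.8 to 14.1, 7.15 to 8.57, 9.50 to 13.3 and 18.7 to 20.7 CPM in the same order. On this scale late CMDMs, and not early CMDMs, were the highest fraction for both genes, without overlap. This comparison was made without a test, and the part of keratinocyte RNA in the levels was not tested.

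**Figure D3:**
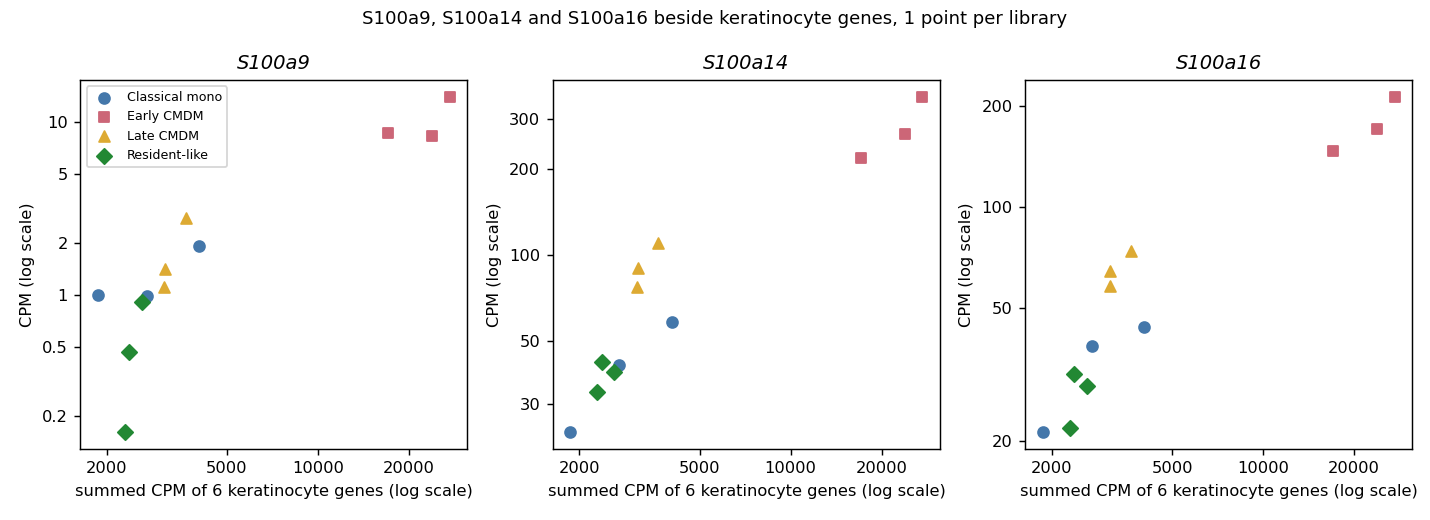
CPM of *S100a9*, *S100a14* and *S100a16* (vertical, log scale) against the summed CPM of 6 keratinocyte genes (horizontal, log scale), 1 point per library, with colours and shapes for the 4 fractions. The 3 early CMDM libraries (17096 to 27284 summed CPM) lie at the upper right in every panel, and the late CMDM libraries lie above the classical monocyte and resident-like libraries of like keratinocyte sum for *S100a14* and *S100a16*.

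The broadly expressed leukocyte members changed by less than 2-fold with TMM, and each had its own pattern. *S100a4* (chromosome 3, 90603771 to 90606045), which binds the heavy chain of non-muscle myosin, had 448, 542 and 413 CPM in the classical monocyte libraries, 272, 271 and 347 CPM in the early CMDM libraries, 453, 443 and 368 CPM in the late CMDM libraries and 419, 741 and 558 CPM in the resident-like libraries. It was the one member called lower in early CMDMs than in classical monocytes, by 1.58-fold without overlap (log2 fold change -0.66, standard error 0.18, edgeR adjusted p = 0.00686), but turned to 1.05 with scaling by leukocyte genes, less than the median gene. Resident-like macrophages were 1.93-fold above early CMDMs (log2 fold change 0.95, edgeR adjusted p = 0.000425), turning to -0.55 under that scaling. The higher level in late than in early CMDMs (0.51, edgeR adjusted p = 0.0399), which turned to -0.36 under that scaling, was lost without classical monocyte replicate 1 (0.503), early CMDM replicate 1 (0.44) or 2 (0.44), late CMDM replicate 1 (0.45) or 2 (0.47) or resident-like replicate 3 (0.51), and with DEGES (0.46), a scaling that sets aside genes called as changed, no filter on low counts (0.50) or the total count covariate (0.45). Without resident-like replicate 1, its lowest library there, resident-like macrophages were called above classical monocytes (0.475) and above late CMDMs (0.62). With all libraries these values were 0.29 and 0.44, and with scaling by leukocyte genes 0.504 and -0.19. Late CMDMs against classical monocytes gave -0.15, not called, and 0.70 under that scaling, where it was called (edgeR adjusted p = 0.00126). Fibroblast genes, among which *S100a4* is often counted, had a summed 2988 to 5588 CPM over 6 genes in classical monocytes and early CMDMs and 276 to 499 CPM in the other 6 libraries. The part of fibroblast RNA in the values of *S100a4* and of the other members was not tested.

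*S100a6* (calcyclin, chromosome 3, 90612882 to 90624181) was highest in late CMDMs with TMM. It had 593, 643 and 559 CPM in the classical monocyte libraries, 789.5, 824 and 886 CPM in the early CMDM libraries, 1158, 1078 and 987 CPM in the late CMDM libraries and 507, 954 and 697 CPM in the resident-like libraries. The first 3 fractions did not overlap with each other, and the resident-like libraries reached across the classical monocyte and early CMDM ranges. Late CMDMs were 1.79-fold above classical monocytes (log2 fold change 0.84, standard error 0.17, edgeR adjusted p = 0.000882). With scaling by leukocyte genes this was 1.69, where the median gene moved by 0.83. The difference of late and early CMDMs (0.37, edgeR adjusted p = 0.108) did not pass. It turned to -0.52 under that scaling, where it was called (edgeR adjusted p = 0.0156). With TMM it passed without resident-like replicate 1 (0.37) or 2 (0.37), which enter through the shared estimate of the spread. The rise in early CMDMs against classical monocytes (0.48, edgeR adjusted p = 0.0283) was lost without classical monocyte replicate 1 (0.48) or 3 (0.43) or early CMDM replicate 3 (0.44) or with the total count covariate (0.38), and the fall to resident-like macrophages from late CMDMs (-0.58, edgeR adjusted p = 0.0162) without late CMDM replicate 1 (-0.52) or resident-like replicate 1 (-0.38) or 3 (-0.56), with the covariate (-0.28) or with the 6 libraries of that comparison alone (-0.58). Resident-like macrophages were called above classical monocytes without resident-like replicate 1 (0.465) and below early CMDMs without resident-like replicate 2 (-0.47).

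*S100a10* (p11, chromosome 3, 93555080 to 93564643), the partner of annexin A2, had 693, 746 and 572 CPM in the classical monocyte libraries, 714, 754 and 728 CPM in the early CMDM libraries, 911, 933 and 834 CPM in the late CMDM libraries and 866, 1360.2 and 1084 CPM in the resident-like libraries. Classical monocytes overlapped with early CMDMs and late CMDMs with resident-like macrophages. Resident-like macrophages were 1.65-fold above classical monocytes (log2 fold change 0.72, standard error 0.14, edgeR adjusted p = 0.00127). With scaling by leukocyte genes this was 0.93, where the median gene moved by 0.21. Resident-like macrophages were 1.51-fold above early CMDMs (0.59, edgeR adjusted p = 0.00275), a direction that turned to -0.94 under that scaling. The higher level in late CMDMs than in classical monocytes (0.41, edgeR adjusted p = 0.0326) was lost without classical monocyte replicate 1 (0.445) or 3 (0.31) or late CMDM replicate 1 (0.40) or 2 (0.39), or with the total count covariate (0.30). Resident-like macrophages were called above late CMDMs without resident-like replicate 1 (0.45), where the log2 value with all libraries was 0.31 (edgeR adjusted p = 0.125) and turned to -0.33 under that scaling. The ratio of *S100a10* to *Anxa2* counts was 1.30 to 1.47 in late CMDMs, above 0.709 to 0.839 in early CMDMs, 0.786 to 0.971 in classical monocytes and 0.831 to 1.25 in resident-like macrophages.

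*S100a11* (calgizzarin, chromosome 3, 93520488 to 93526287), which binds annexin A1, was lowest in late CMDMs with TMM. It had 229, 288 and 222 CPM in the classical monocyte libraries, 335, 416 and 319.8 CPM in the early CMDM libraries, 184, 188 and 176 CPM in the late CMDM libraries and 265, 445 and 353 CPM in the resident-like libraries. The late CMDM libraries lay below all others, and early CMDMs and resident-like macrophages overlapped. *S100a11* was 1.96-fold lower in late than in early CMDMs (-0.97 on the log2 scale, standard error 0.16, edgeR adjusted p = 0.00027). With scaling by leukocyte genes this was -1.89, where the median gene moved by -0.86. *S100a11* was 1.94-fold higher in resident-like macrophages than in late CMDMs (0.96, edgeR adjusted p = 0.000398), which under that scaling was 0.32 and no longer called. The increase between classical monocytes and early CMDMs (0.53, edgeR adjusted p = 0.0134) was lost without classical monocyte replicate 3 (0.465) or early CMDM replicate 2 (0.42).

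Other calls of *S100a11* were lost under several alternatives. The lower level in late CMDMs than in classical monocytes (-0.43, edgeR adjusted p = 0.0484) turned to 0.41 with scaling by leukocyte genes and was lost without classical monocyte replicate 1 or 2, early CMDM replicate 1, resident-like replicate 3 or any late CMDM library, at -0.475 to -0.30, and also with RLE size factors (-0.43, edgeR adjusted p = 0.0504), DEGES (-0.39) or the total count covariate (-0.503). The higher level in resident-like macrophages than in classical monocytes (0.52, edgeR adjusted p = 0.0269), which overlapped, was lost without classical monocyte replicate 1 (0.49) or 3 (0.45) or resident-like replicate 2 (0.33) or 3 (0.53), and with library size only (0.35), the covariate (0.57) or the 6 libraries alone (0.53). Early CMDMs and resident-like macrophages had a log2 difference of -0.01 (edgeR adjusted p = 0.964), and its sign turned without early CMDM replicate 2 (0.11) or resident-like replicate 1 (0.16). In all of *S100a4*, *S100a6*, *S100a10* and *S100a11*, resident-like replicate 1 was the lowest and replicate 2 the highest library of that fraction.

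Some reads of these genes may have been assigned to near-identical gene models. *Gm42674*, which overlaps *S100a3* and *S100a4* and matches 302 bases of *S100a4* at 100%, held 27706 counts over the 12 libraries against 86592 for *S100a4*. It had 30.2 to 33.3 counts per 100 *S100a4* counts in every library. *Gm42674* also matches 146 bases of *S100a3* at 100%, a gene with 179 counts over the 12 libraries. This match was not part of the sum below, so that the values of *S100a3* are uncertain as well. *Gm12854*, which matches 297 bases of *S100a11* at 99.0%, had 25.4 to 29.3 counts per 100 *S100a11* counts. Adding the look-alikes to *S100a4* and *S100a11* changed no call of a member, so that it is the levels of these genes that are uncertain. The one sign that turned was that of the near-zero *S100a11* difference between resident-like macrophages and early CMDMs (0.00021).

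*S100a1* (chromosome 3, 90511034 to 90514392) increased in each successive fraction with TMM, whereas with scaling by leukocyte genes its rise ended at early CMDMs. It had 20.7, 20.3 and 17.3 CPM in the classical monocyte libraries, 23.6, 23.3 and 26.9 CPM in the early CMDM libraries, 43.2, 48.4 and 41.4 CPM in the late CMDM libraries and 50.2, 64.4 and 57.4 CPM in the resident-like libraries, so that no fraction overlapped with another. It was the one member called in all 6 comparisons. Late CMDMs were 2.28-fold (log2 fold change 1.19, standard error 0.12, edgeR adjusted p = 9.31e-07) and resident-like macrophages 2.94-fold (1.56, standard error 0.12, edgeR adjusted p = 7.52e-08) above classical monocytes. With scaling by leukocyte genes these were 2.03 and 1.77, where the median gene moved by 0.83 and 0.21. The rise of 0.85 from early to late CMDMs (edgeR adjusted p = 3.65e-05) and of 1.22 from early CMDMs to resident-like macrophages (edgeR adjusted p = 3.09e-07) became -0.02 and -0.29 under that scaling and were not called there.

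The smaller steps of *S100a1* were lost under several alternatives. The rise in early CMDMs against classical monocytes (0.34, edgeR adjusted p = 0.0302) was lost without classical monocyte replicate 3 (0.26) or early CMDM replicate 3 (0.27), and with the total count covariate (0.32) or the 6 libraries alone (0.325). The rise from late CMDMs to resident-like macrophages (0.37, edgeR adjusted p = 0.0225) was lost without late CMDM replicate 1 (0.35) or 3 (0.32) or resident-like replicate 2 (0.28) or 3 (0.37), with DEGES (0.31), library size only (0.23) or the covariate (0.43), and turned to -0.27 with scaling by leukocyte genes. Dendritic and Langerhans cell genes, led by *Cd207*, were also highest in resident-like macrophages, with a summed 907 to 1204 CPM over 6 genes. The sum was 192 to 263 CPM in early CMDMs, 138 to 178 CPM in classical monocytes and 127 to 165 CPM in late CMDMs. The part of these genes in the *S100a1* values was not tested. The skeletal muscle sum, led by *Acta1*, overlapped between fractions. The summed CPM of 6 genes was 44.5 to 57.0 in classical monocytes, 36.9 to 74.2 in early CMDMs, 44.3 to 75.2 in late CMDMs and 46.4 to 51.7 in the resident-like libraries. Of the 4 of these genes tested, 1 was higher in late CMDMs than in classical monocytes (18.1% of all genes, median log2 fold change 0.84) and 1 was lower in resident-like macrophages than in late CMDMs. *S100a13*, whose gene starts 43 bases from that of *S100a1* on the other strand, was highest in late CMDMs (64.4 ± 5.79 CPM), so that the ratio of *S100a1* to *S100a13* counts was 1.29 to 1.60 in resident-like macrophages and 0.557 to 0.717 in the other 9 libraries.

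Taken by class, the myeloid sum moved less than the epidermal sum. *S100a9*, with at most 14.04 CPM in a library, weighs little in the myeloid sum. This sum did not go with the 8 monocyte and macrophage genes, whose sum was 7042 to 8992 CPM in classical monocytes and 2353 to 3358 CPM in early CMDMs. The summed CPM of the 6 myeloid members was 1770.3 to 2224 in classical monocytes, 2122 to 2293 in early CMDMs, 2368 to 2710 in late CMDMs and 2058 to 3502 in the resident-like libraries. The epidermal sum was 45.4 to 102.6, 369.6 to 575, 136 to 185 and 55.0 to 74.3 CPM in the same order. The ratio of the myeloid to the epidermal sum, which no scaling of a library changes, was 3.97 to 6.20 in early CMDMs, 14.3 to 19.9 in late CMDMs, 21.7 to 39.0 in classical monocytes and 36.2 to 51.0 in resident-like macrophages. Early CMDMs lay below all other libraries, late CMDMs below the remaining 2 fractions, and classical monocytes overlapped with resident-like macrophages. No test was run on these sums, whose myeloid part is set by the 4 broadly expressed members.

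The class counts were read in 4 of the 6 comparisons. Of the myeloid members, 3 of 6 were higher and 1 lower in early CMDMs against classical monocytes, with a median log2 fold change of 0.43 (24.2% and 20.6% of all tested genes), while the epidermal members, including *S100a3*, which had to differ there, had 3 of 3 higher and a median of 2.78. In late against early CMDMs 1 of 6 myeloid members was higher and 3 lower (median -0.24), and 3 of 3 epidermal members were lower (median -1.60, 14.4% and 17.5% of all genes), among them *S100a3*, whose call was lost without early CMDM replicate 3. Next, 1 of 6 myeloid members was higher and 2 lower in resident-like macrophages against late CMDMs (median -0.14), and 2 of 3 epidermal members were lower (median -1.25, 12.7% and 15.4%). In resident-like macrophages against classical monocytes 2 of 6 myeloid members were higher and 1 lower (median 0.28), and 0 of 3 epidermal members passed in either direction (median -0.11, 10.8% and 12.9%). *S100a9* was the myeloid member nearest to the epidermal ones, with a Pearson r of log2 CPM over 12 libraries of 0.93 with *S100a16* and 0.91 with *S100a14*, against 0.75 with *S100a8*. The 12 libraries are 4 fractions of 3 and share their keratinocyte content, so these r values describe the libraries and are given without a test.

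The genes most like a member by this r, among those with a mean of at least 10 CPM, were also read. *S100a14* was matched by *Arc* (0.99), *S100a16* (0.99), *Scel* (0.99), *Tfap2a* (0.99) and *Acer1* (0.99), of which *Scel* encodes sciellin of the cornified envelope and *Tfap2a* a transcription factor of keratinocytes. *S100a9* was matched by *Ptpn3* (0.98), *Traf3ip2* (0.98), *Csnk2a3* (0.97), *Mcc* (0.97) and *Net1* (0.97), with *Ptpn3* at 32.8 CPM in early CMDMs and 5.30 to 10.2 CPM elsewhere. *Traf3ip2* encodes the adaptor of the IL-17 receptor. *S100a1* was matched by *Cacna1a* (0.99), *Hpgds* (0.98), *Fcrls* (0.98), *Psd3* (0.97) and *Mmp9* (0.97). *Hpgds*, the hematopoietic prostaglandin D synthase, went from 24.8 CPM in classical monocytes to 196 CPM in resident-like macrophages. For *S100a8* the best r was 0.93 (*Aak1*), for *S100a3* 0.85 (*Tspan7*), and for *S100a4*, after its look-alike *Gm42674*, 0.92 (*Emp3*).

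Receptors through which S100 proteins act and proteins that they bind inside the cell were read from a list of 15 genes, all of which were tested. Of these, 4 were higher and 7 lower in early CMDMs than in classical monocytes (24.2% and 20.6% of all tested genes), 6 higher and 1 lower in late than in early CMDMs (14.4% and 17.5%), and 6 higher and 4 lower in resident-like macrophages than in late CMDMs (12.7% and 15.4%). The 7 became 4 without early CMDM replicate 1, and the last 4 became 2 without late CMDM replicate 3 or resident-like replicate 2 or 3. With scaling by leukocyte genes these became 13 higher and 1 lower, 0 higher and 9 lower, and 2 higher and 7 lower. Of all 22118 tested genes, 20073 were then higher and 472 lower, 196 higher and 15153 lower, and 622 higher and 11789 lower. The counts under that scaling thus do not set the listed genes apart from most tested genes. *Tlr4*, the receptor of calprotectin, had 28.4, 38.4 and 37.4 CPM in the classical monocyte libraries, 22.9, 18.3 and 29.3 CPM in the early CMDM libraries, 56.1, 43.6 and 59.8 CPM in the late CMDM libraries and 24.3, 22.7 and 18.2 CPM in the resident-like libraries. It was highest in late CMDMs, by 1.18 on the log2 scale against early CMDMs, which was 0.32 and not called under leukocyte-gene scaling, and by 1.29 against resident-like macrophages, called under both. Its co-receptor *Ly96* (MD-2) was highest there as well, with 53.1 ± 7.44 CPM against 25.3 ± 2.82 CPM in classical monocytes (log2 fold change 1.07, 1.91 under leukocyte-gene scaling). *Ager*, which encodes RAGE, was low throughout, with a mean of 0.711 to 1.61 CPM. It was called higher in resident-like macrophages than in early CMDMs, at 1.03 to 1.37 on the log2 scale over the left-out libraries. The call was lost without any early CMDM library, without resident-like replicate 1 or 2 and with the total count covariate (0.449). The value turned to -0.32 under leukocyte-gene scaling.

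*Cd69* was lower in every other fraction than in classical monocytes under both scalings. *Cd69*, a lymphocyte activation antigen that binds calprotectin, had 90.7, 55.7 and 72.4 CPM in the classical monocyte libraries, 6.19, 5.50 and 9.18 CPM in the early CMDM libraries, 8.44, 7.96 and 9.24 CPM in the late CMDM libraries and 20.6, 21.05 and 21.2 CPM in the resident-like libraries. From classical monocytes to early CMDMs its log2 fold change was -3.39, and -1.71 and still called under leukocyte-gene scaling. *Alcam* was 2.19 higher on the log2 scale in resident-like macrophages (142 ± 2.85 CPM) than in late CMDMs (31.1 ± 3.63 CPM), and *Emb*, which encodes embigin, fell from 423 ± 23.5 CPM in classical monocytes to 169 ± 14.4 CPM in early CMDMs. Both were lower in early CMDMs than in classical monocytes (-1.66 and -1.32), directions that turned under leukocyte-gene scaling (0.08 and 0.40). *Cd36* was 1.10 higher on the log2 scale in late CMDMs and 1.35 higher in resident-like macrophages than in classical monocytes. With TMM the partner genes moved by less than 1 on the log2 scale in every comparison.

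**Figure D4:**
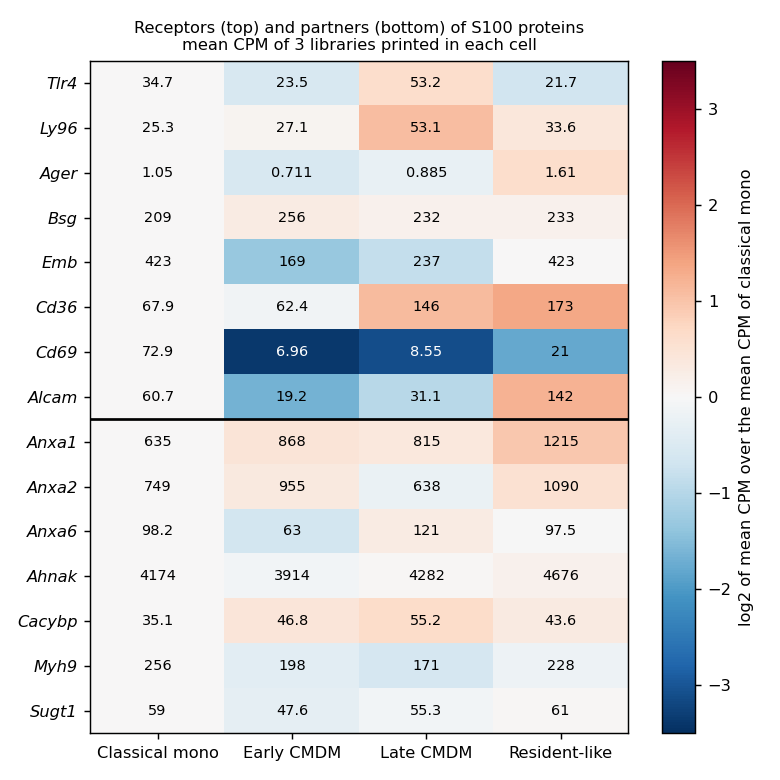
Mean CPM of 3 libraries (printed) of 8 receptor genes and 7 partner genes in each fraction, coloured by the log2 ratio to classical monocytes. *Tlr4* and *Ly96* have their highest means in late CMDMs (53.2 and 53.1 CPM), and *Cd69* falls from 72.9 CPM in classical monocytes to 6.96 CPM in early CMDMs.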

How the data were processed

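Counts of 12 libraries (4 fractions, 3 each) were read as the authors deposited them. Per the sources, the authors trimmed reads with cutadapt 4.1, mapped them with Bowtie2 2.4.5 to reference RNA of GRCm38 on 1 strand, and summed transcript counts by gene symbol without normalization, so that reads of near-identical genes could be split. The number of columns not used was 0.

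The counts were TMM-normalized, filtered with filterByExpr by fraction and fitted in edgeR 4.0.16 (R 4.3.3, robust quasi-likelihood test, in place of the TCC of the study) on all 12 libraries, with Benjamini-Hochberg adjustment over 22118 of 37775 genes and a threshold of 0.05. The biological coefficient of variation was 13.2%. The chi-square between replicates, divided by its degrees of freedom, was 4.24 to 21.9, above sampling noise in every pair. On simulated data for early CMDMs against classical monocytes, 199 of 200 genes changed 3-fold were recovered among 22118, with 14 unchanged genes called. CPM per kb used the longest coding transcript of GENCODE M21, and likeness between genes used log2 CPM with a prior count of 2. The limit of 3 counts covers counting error only, whereas the SD and the standard errors include the spread between libraries.

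The members and all gene lists were chosen with earlier results of these data known. All 10 members were named in each comparison, list genes were named where called and changed by 1 or more on the log2 scale, and 5 genes were named per member for likeness. Genes of a list named without this and the ratios were chosen after their values were seen. The alternatives were DESeq2 1.42.0, RLE size factors, DEGES (3 rounds), library size only, leukocyte-gene scaling, no filter, at least 10 counts in every library, a replicate block, a log2 total count covariate, no genes over 1% of counts, the 6 libraries of a comparison alone, and leaving out each library. Summing look-alike counts was chosen after seeing the data.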

Additional observations from a re-analysis of the deposited data

How the results depend on the processing

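Of 60 member results, 59 kept direction and call with DESeq2, RLE size factors or no filter, 57 with DEGES, 59 with look-alikes summed or a replicate block, 60 without genes over 1% of counts, 56 with library size only, 51 of 57 with 6 libraries alone, 45 with the total count covariate (12 calls lost, 3 signs turned) and 48 of 48 with at least 10 counts in every library, where *S100a3* and *S100a9* gave no value. Leukocyte-gene scaling changed most. It called 20545 genes in early CMDMs against classical monocytes, 97.7% of them higher (9925 and 54.0% otherwise), 15897 (93.2%) in late CMDMs against classical monocytes (7869, 50.8%), 15349 (1.28%) in late against early CMDMs (7045, 45.1%), 19855 (1.80%) in resident-like macrophages against early CMDMs (10297, 46.0%), 12411 (5.01%) against late CMDMs (6225, 45.1%) and 4506 (65.1%) against classical monocytes (5251, 45.7%). With library size only, 28.0%, 31.5% and 24.1% of calls in resident-like macrophages were higher than in late CMDMs, early CMDMs and classical monocytes. The total count covariate called 1743 genes between resident-like macrophages and late CMDMs and 6339 against early CMDMs.

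Under leukocyte-gene scaling the log2 values that turned were, in late against early CMDMs, -0.0212 for *S100a1*, -0.611 for *S100a10*, -0.357 for *S100a4* and -0.52 for *S100a6*. They were -0.287, -0.94 and -0.551 for *S100a1*, *S100a10* and *S100a4* in resident-like macrophages against early CMDMs, and -0.266, -0.329 and -0.194 against late CMDMs. Against classical monocytes they were 1.05 for *S100a4* in early CMDMs, 0.698, 0.414 and 0.464 for *S100a4*, *S100a11* and *S100a8* in late CMDMs and 0.108 for *S100a14* in resident-like macrophages. *Alcam* and *Emb* turned to 0.077 and 0.402 in early CMDMs against classical monocytes, and *Ager*, *Cd36* and *Emb* to -0.32, -0.0411 and -0.187 in resident-like macrophages against early CMDMs. Each moved in the direction of the median gene.

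Values that did not pass the test turned elsewhere, *S100a11* in resident-like macrophages against early CMDMs to 0.0117 with 6 libraries, 0.0728 with the covariate, 0.00021 with look-alikes summed, and 0.11 and 0.161 without early CMDM replicate 2 and resident-like replicate 1, in a range of -0.208 to 0.161 over all left-out libraries. *S100a3* in resident-like macrophages against classical monocytes turned to -0.064 with the covariate and to -0.0195 and -0.0105 without classical monocyte replicate 1 and resident-like replicate 2 (range -0.0195 to 0.776). *S100a6* in resident-like macrophages against early CMDMs turned to 0.00729 with the covariate, *S100a9* in late CMDMs against classical monocytes to -0.0356 without late CMDM replicate 2 (range to 0.867), and *S100a14* in resident-like macrophages against classical monocytes to 0.229 without classical monocyte replicate 2 (range from -0.384). The cause was not tested.

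Leukocyte-gene scaling moved the member counts to 0 lower in early CMDMs against classical monocytes, 8 higher and 0 lower in late CMDMs against classical monocytes, 0 higher in late against early CMDMs, 0 higher and 9 lower in resident-like macrophages against early CMDMs and 0 higher against late CMDMs. It moved the receptor and partner counts to 13 higher and 1 lower, 10 higher and 1 lower, 0 higher and 9 lower, 1 higher and 10 lower, and 2 higher and 7 lower in these comparisons, and to 1 lower in resident-like macrophages against classical monocytes. Members lower in resident-like macrophages than in classical monocytes were 2 with DESeq2 and with library size only, and lower than in early CMDMs 3 with 10 counts in every library. Members higher in late than in early CMDMs were 4 with 6 libraries and 1 with DEGES, the covariate or no filter. Members higher in resident-like macrophages than in late CMDMs were 1 with DEGES, library size only or the covariate, which also left 0 lower. The 1 member lower in late CMDMs than in classical monocytes became 0 with DEGES, RLE size factors or the covariate. Receptors and partners were 2 higher in early CMDMs than in classical monocytes with 6 libraries, 1 lower in resident-like macrophages than in early CMDMs with DEGES or library size only, and with the covariate 3 higher in late CMDMs than in classical monocytes and 1 lower in resident-like macrophages than in late CMDMs.

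Leaving out each library gave, for members, 4 to 7 higher in early CMDMs against classical monocytes, 1 to 3 higher in late against early CMDMs, 1 to 4 higher and 2 to 4 lower in resident-like macrophages against late CMDMs, 2 to 5 higher and 1 to 2 lower against classical monocytes, and 0 to 1 lower in late CMDMs against classical monocytes. Receptors and partners were 4 to 7 lower in early CMDMs against classical monocytes, 2 to 4 lower in resident-like macrophages against late CMDMs and 1 to 2 lower against classical monocytes.

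The values did not settle whether replicate numbers pair the libraries. Deviations of same-numbered libraries correlated at -0.0987 to 0.248 (median 0.0589), over 0.1 in 4 of 18 pairs. Those of different-numbered libraries correlated at -0.215 to 0.171 (median -0.0314), over 0.1 in 1 of 36 pairs. With a replicate block, 10322 genes were called in early CMDMs against classical monocytes, and *S100a9* was also called in resident-like macrophages against classical monocytes (-1.37), which made 2 members lower; no other member call changed.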

Other observations

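The other S100 genes listed were mostly low. Of 8, 7 were in the table and 5 were tested, and *S100a13* was the one called in more than 1 comparison. It had 33.7, 34.0 and 26.1 CPM in the classical monocyte libraries, 36.9, 41.8 and 41.0 CPM in the early CMDM libraries, 67.7, 67.8 and 57.7 CPM in the late CMDM libraries and 32.1, 49.98 and 35.8 CPM in the resident-like libraries. The late CMDM libraries lay above all others, with a log2 fold change of 1.04 against classical monocytes (1.89 with scaling by leukocyte genes). *S100a7l2* varied within fractions, with 1.48, 9.18 and 1.00 CPM in classical monocytes.

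The S100-fused genes encode epidermal proteins with an S100 domain joined to a long repeat, such as filaggrin. Of 7 listed, 4 were tested, and 4 of 4 were higher in early CMDMs than in classical monocytes (24.2% of all tested genes were). *Hrnr* (hornerin) had 33.2, 42.8 and 31.2 CPM in early CMDMs against 3.26, 3.02 and 2.23 CPM in the classical monocyte libraries, 4.54, 4.92 and 4.25 CPM in the late CMDM libraries and 2.37, 2.06 and 6.06 CPM in resident-like macrophages. *Flg2* (filaggrin-2) had 7.11, 10.3 and 9.69 CPM in early CMDMs and at most 1.16 CPM in every other library. *Flg* and *Tchh* (trichohyalin) had 3.37 ± 1.25 and 4.08 ± 1.77 CPM in early CMDMs. In late against early CMDMs 3 of the 4 were lower (17.5% of all genes were), and *Tchh* did not pass (log2 fold change -0.81). In resident-like macrophages against late CMDMs 0 of 4 passed (12.7% of all genes were higher and 15.4% lower). These genes moved with the keratinocyte sum, and the part of keratinocyte RNA in their values was not tested.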
